A study of Mus musculus with 4 samples.

Results

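The genes of glycolysis, gluconeogenesis, fructose breakdown and glycogen turnover were examined in nuclei from mouse liver. The set was a given list of 34 gene symbols, matched by symbol to 35 of the 32285 mouse features counted, since Aldoa has a second feature (ENSMUSG00000114515) that held at most 1 UMI in any library. Of the 34 genes, 21 act in glucose use, 6 in glucose production and 5 in glycogen turnover, and 2 are regulators. All libraries came from Bl/6 mice, which the study describes as male, and each group is 1 library: whether a library held 1 liver or several is not stated in the sources used here. CD control and CD oncogene were on a chow diet (CD) and the other libraries, LPD control and LPD oncogene, on a low-protein diet (LPD), each for 1 week before and 2 weeks after hydrodynamic tail vein injection. The LPD replaced part of the protein with carbohydrate. The oncogene groups received Sleeping Beauty transposon plasmids in which the EF1α promoter, which is active in many cell types, drives human c-MET and a β-catenin that lacks its N terminus, and such plasmids reach only some hepatocytes. The controls received vector. According to the study's general protocol, mice were fasted for several hours before harvest unless stated otherwise, and its mice were young adults.

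Glycolysis splits glucose to pyruvate in the cytosol, and gluconeogenesis runs much of the same path backwards, with its own enzymes at the steps that glycolysis cannot reverse. The liver does both: after a meal it takes up glucose, stores it as glycogen and turns the surplus to fat, and in fasting it breaks down glycogen and makes glucose from lactate and amino acids. Insulin and glucagon set the balance, and gluconeogenesis is known to lie mainly near the portal vein, where oxygen-rich blood enters the lobule.

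After the study's filter the libraries held 9825 to 12552 nuclei, with a median of 1762 to 3807 unique molecular identifiers (UMIs) per nucleus. Hepatocyte-like nuclei numbered 6838 to 9655 per library and gave 18783260 to 54665279 UMIs. The LPD libraries were shallower (median 2241 and 2277.5 UMIs per hepatocyte-like nucleus, against 4786 and 4049 on CD) and had a lower median mitochondrial share (0.0999667% and 0.127%, against 2.42% and 0.983%), and these differences cannot be told apart from the diet. Human transgene UMIs numbered 100 in the library labelled CD control, 0 in CD oncogene, 0 in LPD control and 6 in LPD oncogene, so on CD the transgenes go against the labels. The groups are kept as labelled, and every library below is named by its label. The numbers of nuclei that the study states for its CD groups also rank in the reverse order of the files as labelled. Were the CD labels exchanged, each CD ratio of oncogene over control would change its sign. In all, 179 barcodes occurred in more than 1 library.

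Levels are in CPM, the UMIs of a gene scaled by all mouse UMIs in the hepatocyte-like nuclei of a library. Each group of diet and injection is 1 library and no test was run, also not between the diets, where the 2 libraries of a diet differ in injection. The 95% intervals, in square brackets, are exact Poisson or conditional intervals that cover counting error only, not differences between mice. A gene was called between the diets when it differed by at least 1.5-fold (0.58 on the log2 scale) in the same direction in all 4 pairs of an LPD and a CD library. Of the 35 features, 28 passed the filter on low values (20 CPM in some library and 50 UMIs in all) and 7 did not, namely Pfkl, Pgam1, G6pdx, Pdha1, Pck2, Gyg and the second Aldoa feature. Pfkfb3 and Aldoa passed only through the LPD libraries.

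Many glucose metabolism genes were higher in the LPD libraries. Of the 28 that passed, 12 were called higher and 0 lower, where 11.8% and 3.88% of the 7239 genes tested were called. The median log2 ratio over the 4 pairs was 0.94 for the 28 and 0.21 for all genes tested, a shift that the ratios below include. Both LPD libraries lay above both CD libraries, at any size, for 22 of the 28, where 47.4% of all genes did so, and below them for 0, where 17.8% did.

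**Figure D1:**
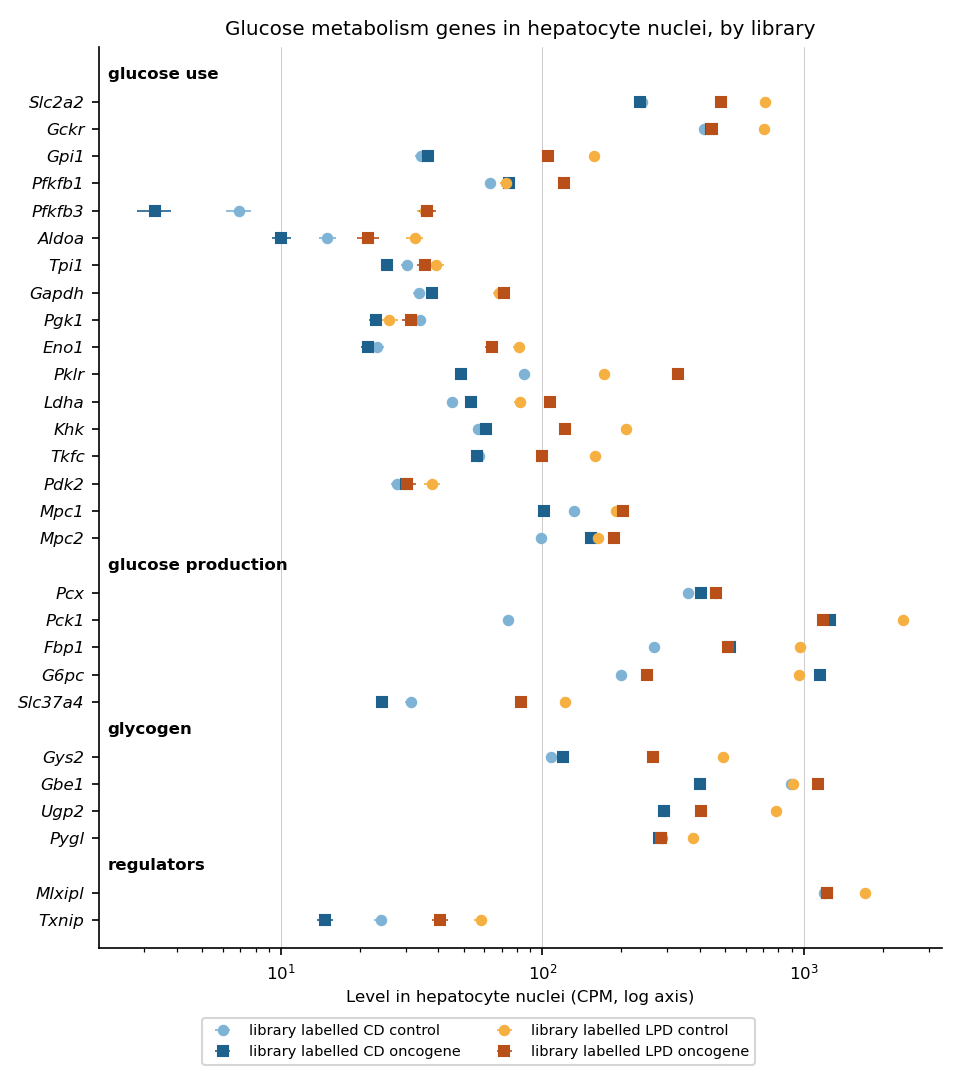
Level of each of the 28 genes that passed the filter (CPM in hepatocyte-like nuclei, log axis) in each library, with 95% counting intervals, grouped by side. For Gpi1, Eno1, Slc2a2 and Gys2 both LPD libraries lie to the right of both CD libraries, while Pck1 and G6pc separate by library and not by diet.

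On the side of glucose use, 9 of the 17 features that passed were called higher on LPD and 0 lower. They were Slc2a2, Gpi1, Pfkfb3, Gapdh, Eno1, Pklr, Ldha, Khk and Tkfc. Slc2a2 encodes GLUT2, the transporter that carries glucose across the hepatocyte membrane in both directions. Its level was 241 CPM [237 to 246] in the library labelled CD control, 236 [232 to 241] in CD oncogene, 709 [697 to 720] in LPD control and 480 [470 to 490] in LPD oncogene. The CD libraries nearly coincided, and the LPD libraries were 1.99 to 2.997 times as high.

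Gpi1, the isomerase that links glucose 6-phosphate and fructose 6-phosphate, was at 34.2, 36.7, 157 and 106 CPM in the same order of libraries. Eno1, the enolase of lower glycolysis, was at 23.4, 21.5, 81.1 and 64.1 CPM. Gapdh, which oxidises glyceraldehyde 3-phosphate, was at 33.7, 38.0, 68.2 and 71.5 CPM. In each of the 3, both LPD libraries stood well above both CD libraries: the pairs ranged from 2.88-fold to 4.60-fold for Gpi1, from 2.74-fold to 3.77-fold for Eno1 and from 1.79-fold to 2.12-fold for Gapdh. These are enzymes that also run in the direction of glucose production. Of the 9 features for such steps, 7 passed and 4 were called, the fourth being Ldha, lactate dehydrogenase A, at 45.2, 53.5, 81.9 and 107 CPM.

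Pklr encodes the liver pyruvate kinase, which commits carbon to pyruvate and is under the control of the carbohydrate-responsive factor ChREBP. It was at 85.4 CPM [82.8 to 88.1] in the library labelled CD control, 48.7 [46.9 to 50.6] in CD oncogene, 172 [167 to 178] in LPD control and 331 [323 to 340] in LPD oncogene. All 4 libraries were apart, LPD above CD, and the pairs ran from 2.02-fold to 6.803-fold.

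Khk, the fructokinase, was at 56.6, 61.0, 208 and 122 CPM. Tkfc, which phosphorylates the glyceraldehyde released from fructose, was at 57.1, 56.1, 159 and 99.3 CPM. Both fructose genes were nearly level between the CD libraries and highest in LPD control. Pfkfb3, a bifunctional enzyme that sets the level of the glycolytic activator fructose 2,6-bisphosphate, was at 6.90 CPM [6.17 to 7.70], 3.29 [2.83 to 3.81], 35.7 [33.2 to 38.4] and 36.3 [33.6 to 39.1]. Its LPD libraries coincided, at 5.18 to 11.0 times the CD levels, but the CD levels were under the filter, so that this gene had to be higher on LPD to be tested. Pfkfb3 was also higher in several other cell classes than in hepatocytes, as given with those classes.

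The other 8 features of glucose use that passed were not called. Gckr, a regulatory protein of hepatic glucose use, was at 416, 441, 704 and 445 CPM, and only the library labelled LPD control stood apart. Mpc1 and Mpc2, the subunits of the mitochondrial pyruvate carrier, had lowest log2 ratios of 0.54 and 0.09 and highest of 1.01 and 0.94. Aldoa (0.52 to 1.69), Tpi1 (0.23 to 0.62) and Pdk2 (0.01 to 0.45) were higher in every pair. Pgk1 (-0.41 to 0.45) and Pfkfb1 (-0.04 to 0.95) overlapped between the diets. Pfkl, the liver phosphofructokinase, stayed under the filter at 4.84 CPM [4.23 to 5.52], 6.06 [5.42 to 6.74], 16.6 [14.9 to 18.4] and 11.8 [10.3 to 13.4]. Pgam1 (9.47 to 13.2 CPM), Pdha1 (12.8 to 19.7 CPM) and G6pdx (0.978 to 1.44 CPM) stayed under it too.

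**Figure D2:**
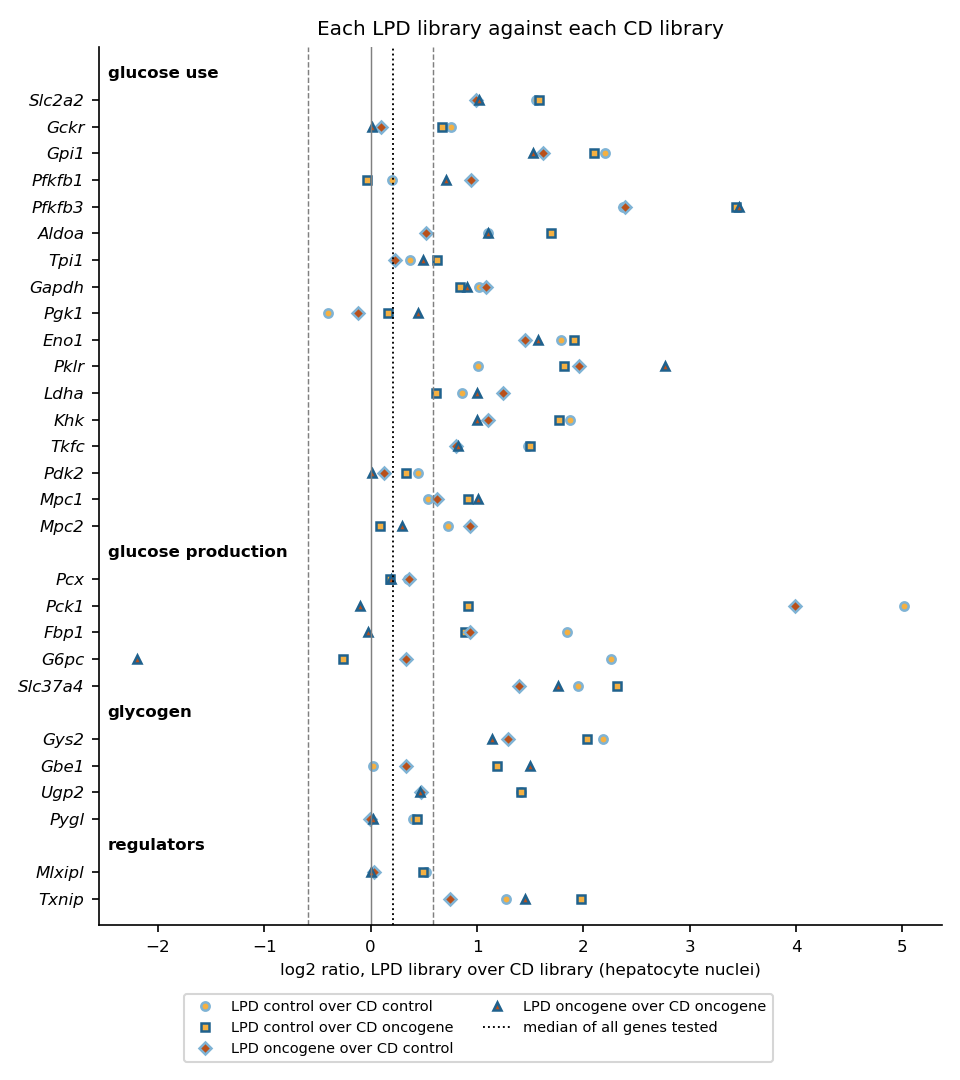
Log2 ratio of each LPD library over each CD library for the 28 genes that passed (4 markers per gene), with dashed lines at 1.5-fold and a dotted line at the median of all genes tested (0.21). All 4 markers lie right of the upper dashed line for 12 genes, and G6pc spreads from -2.19 to 2.26.

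On the side of glucose production, 1 of the 5 genes that passed was called between the diets. Slc37a4 encodes the transporter that brings glucose 6-phosphate into the endoplasmic reticulum, where it is cleaved. It was at 31.5 CPM in the library labelled CD control, 24.4 in CD oncogene, 122 in LPD control and 82.8 in LPD oncogene, a difference of 2.63-fold to 4.99-fold. Pck1, G6pc and Fbp1 overlapped between the diets.

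Pck1, the cytosolic phosphoenolpyruvate carboxykinase that opens the path from oxaloacetate to glucose, was at 73.9 CPM [71.5 to 76.4], 1264 [1254 to 1273], 2388 [2367 to 2409] and 1179 [1163 to 1194], with the libraries in the order used above. Only the first, labelled CD control, was low, and CD oncogene and LPD oncogene differed by 0.10 on the log2 scale. G6pc, the catalytic subunit of glucose-6-phosphatase that releases free glucose, was at 200.4 CPM [196 to 204], 1153 [1144 to 1162], 962 [949 to 976] and 252 [245 to 259]. Here 2 libraries were low, the CD control and LPD oncogene ones, which are the 2 that hold transgene UMIs. Fbp1, fructose bisphosphatase, was at 268 CPM, 520.2 CPM, 964 CPM and 512 CPM, lowest in the library labelled CD control and highest in LPD control. Pcx, pyruvate carboxylase, which supplies oxaloacetate, was at 360 and 404 CPM on CD and 458 and 461 CPM on LPD, apart by diet but under the fold. Pck2, the mitochondrial form of the carboxykinase, stayed under the filter at 1.44 CPM [1.11 to 1.82], 1.10 [0.838 to 1.41], 5.33 [4.38 to 6.43] and 6.28 [5.20 to 7.52], with both LPD libraries higher.

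Shown are the promoters of Pck1, G6pc and Pklr, which differed in opposite directions between the injection labels on the 2 diets. That of the diet-called Khk is given too. The letters of motifs that hormone and carbohydrate signals are known to act through are marked, and so is the TATA box, TATAAA. RefSeq promoter windows (GRCm38.p6, the build of the counts) were found for 33 of the 34 genes and not for Gys2. The 250 bases before the annotated start are given 5′ to 3′, with matches to TGACG (the core of the cAMP response element) or CACGTG (the E-box) on either strand, to 17 bases that begin with CACG and end with CGTG (the spacing of the E-box parts in a carbohydrate response element) or to TATAAA in the gene's direction in capitals. The GENCODE vM21 gene begins inside the windows of Pck1, G6pc and Khk and before that of Pklr.
Pck1, chr2:173152823-173153072, plus strand: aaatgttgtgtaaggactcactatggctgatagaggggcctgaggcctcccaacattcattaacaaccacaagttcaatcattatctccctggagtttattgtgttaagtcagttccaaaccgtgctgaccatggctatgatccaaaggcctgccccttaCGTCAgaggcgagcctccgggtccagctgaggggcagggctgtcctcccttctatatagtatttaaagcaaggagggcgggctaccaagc
G6pc, chr11:101367466-101367715, plus strand: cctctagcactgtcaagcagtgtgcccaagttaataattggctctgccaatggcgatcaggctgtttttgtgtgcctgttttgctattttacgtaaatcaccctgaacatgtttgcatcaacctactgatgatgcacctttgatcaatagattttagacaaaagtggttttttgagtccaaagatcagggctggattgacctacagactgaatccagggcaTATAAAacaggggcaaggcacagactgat
Pklr, chr3:89136373-89136622, plus strand: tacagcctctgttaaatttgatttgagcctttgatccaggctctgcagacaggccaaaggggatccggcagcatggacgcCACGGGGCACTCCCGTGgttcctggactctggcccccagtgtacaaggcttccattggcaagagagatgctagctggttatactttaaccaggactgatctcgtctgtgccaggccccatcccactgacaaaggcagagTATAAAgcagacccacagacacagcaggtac
Khk, chr5:30921309-30921558, plus strand: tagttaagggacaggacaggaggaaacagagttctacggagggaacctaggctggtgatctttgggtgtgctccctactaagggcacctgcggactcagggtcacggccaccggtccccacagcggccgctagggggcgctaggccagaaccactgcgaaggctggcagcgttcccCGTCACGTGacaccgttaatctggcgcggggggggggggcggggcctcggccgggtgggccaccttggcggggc
The Pck1 window holds TGACG on the reverse strand, with its first base 90 bases before the start. The Pklr window was chosen among 2 entries for this gene because it holds the spaced motif, which begins 170 bases before the start, with TATAAA at 31 bases. In the Khk window the CACGTG and TGACG matches share 2 letters. Of the motifs searched, the G6pc window holds only TATAAA, and response elements with other letters were not searched for. Of all 32851 promoter windows, 17.8% hold TGACG, 6.02% CACGTG, 0.219% the spaced motif and 7.59% TATAAA. The listed genes had 50 of these windows, of which 9 held TGACG, 6 CACGTG, 1 the spaced motif and 4 TATAAA. Counted by gene and not by window, TGACG occurred in 6 and CACGTG in 6 (Khk, Ldha, Mlxipl, Pcx, Pdk2 and Pfkfb3). TATAAA occurred in 4 genes and the spaced motif in Pklr. A match describes these letters and is not evidence of binding.

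Glycogen genes were mixed. Gys2, the liver glycogen synthase, was called higher on LPD, at 108 CPM [105 to 111] in the library labelled CD control, 120 [117 to 123] in CD oncogene, 491 [482 to 501] in LPD control and 264 [257 to 271] in LPD oncogene. The pairs ran from 2.21-fold to 4.55-fold. Ugp2, which makes the UDP-glucose that the synthase uses, was at 292 CPM in both CD libraries, 780 in LPD control and 404 in LPD oncogene. The LPD oncogene library was thus 1.38-fold above CD, under the fold for a call. Gbe1, the branching enzyme, was at 897, 399, 911 and 1132 CPM, with the library labelled CD oncogene alone low. Pygl, the liver phosphorylase that degrades glycogen, was at 286, 279, 377 and 284 CPM, with LPD control alone above the rest. Gyg, glycogenin, stayed under the filter at 2.47 to 4.93 CPM.

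Of the 2 regulators, Txnip, a ChREBP target that restrains glucose uptake, was called higher on LPD at 24.1 CPM [22.7 to 25.5], 14.8 [13.8 to 15.8], 58.1 [54.9 to 61.5] and 40.5 [37.7 to 43.5]. Mlxipl, which encodes ChREBP itself, was at 1198, 1222, 1720 and 1227 CPM, and 3 of the 4 libraries were nearly level. Of the 12 calls, Ldha lay closest to the fold and fell under it with other scaling (0.40 on the log2 scale with TMM factors), and Gapdh (0.32) and Ldha (0.44) fell under it when nuclei were clustered without correction for library. Counting is not the limit for any member that passed, since the smallest count in any library was 180 UMIs (Pfkfb3), but Gapdh, Eno1, Ldha, Pgk1, Tpi1, Pgam1 and Aldoa have processed pseudogenes or near-identical copies, and reads that match several places may be lost to them.

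The library labels for injection were then compared on each diet. Each label is 1 library per diet and the transgene UMIs go against the CD labels. The comparison therefore does not isolate what c-MET and β-catenin do. Calls required 1.5-fold. On CD, 4 of the 28 members were higher in the library labelled oncogene and 4 lower, where 7.39% and 10.7% of all genes were. On LPD, 2 were higher and 9 lower, where 5.24% and 5.06% of all genes were. Of the production genes, 3 of the 5 that passed were higher on CD and 0 lower, and 3 were lower on LPD and 0 higher.

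Those 3 were the same genes on both diets. Pck1 was 17.1-fold higher in the library labelled CD oncogene than in CD control (log2 ratio 4.10 [4.05 to 4.15]) and 2.03-fold lower in LPD oncogene than in LPD control (-1.02). G6pc was 5.75-fold higher on CD (2.52 [2.49 to 2.56]) and 3.82-fold lower on LPD (-1.93 [-1.98 to -1.89]). Fbp1 was 1.94-fold higher on CD (0.96 [0.93 to 0.99]) and 1.88-fold lower on LPD (-0.91 [-0.95 to -0.88]). Pklr, on the side of glucose use, went the other way: it was 1.75-fold lower on CD (-0.81 [-0.88 to -0.74]) and 1.92-fold higher on LPD (0.94). The difference between the diets in these ratios was not tested, and the sign on CD rests on labels that the transgene UMIs go against. On each diet the library that holds transgene UMIs, labelled CD control and LPD oncogene, had the lower Pck1, G6pc and Fbp1 and the higher Pklr.

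**Figure D3:**
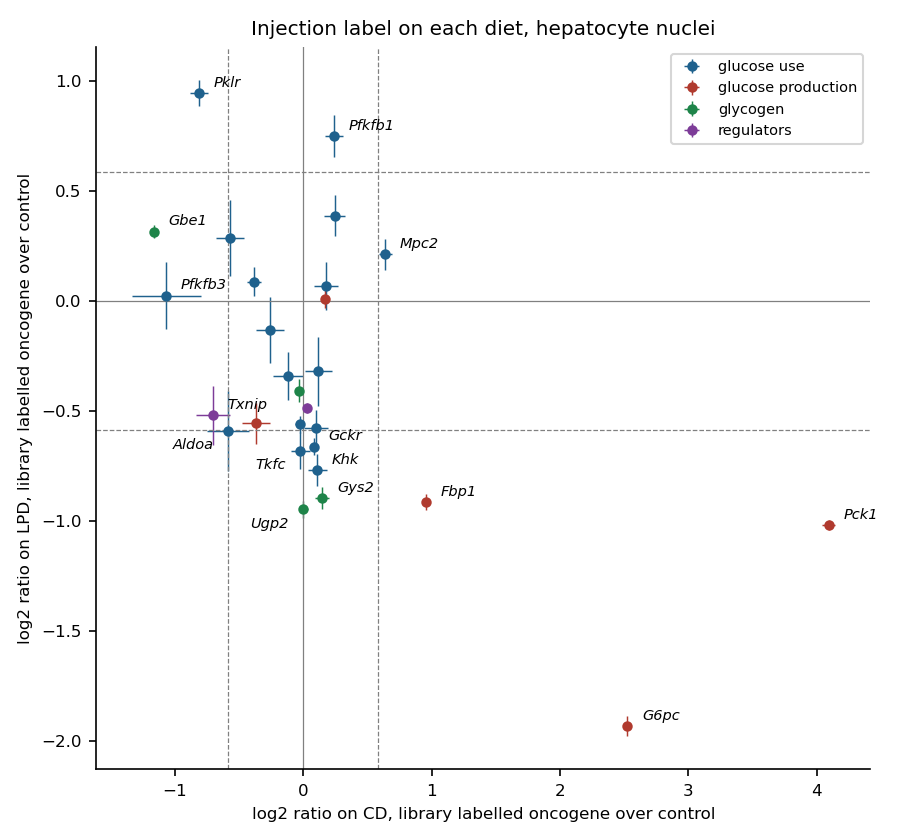
Log2 ratio of the library labelled oncogene over the library labelled control, on CD (horizontal) and on LPD (vertical), for the 28 genes that passed, with 95% counting intervals and dashed lines at 1.5-fold. Pck1, G6pc and Fbp1 lie at the lower right and Pklr at the upper left.

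The remaining calls were each on 1 diet. On CD, Mpc2 was higher in the library labelled oncogene (0.64 [0.59 to 0.69]), and Gbe1 (-1.17 [-1.19 to -1.14]), Pfkfb3 (-1.07 [-1.34 to -0.80]) and Txnip (-0.70 [-0.84 to -0.57]) were lower. On LPD, Pfkfb1, the liver form of the fructose 2,6-bisphosphate enzyme, was higher (0.75 [0.65 to 0.84]). The genes lower on LPD were, beside Pck1, G6pc and Fbp1, the glycogen genes Ugp2 (-0.95) and Gys2 (-0.90), the fructose genes Khk (-0.77) and Tkfc (-0.68), and Gckr (-0.66) and Aldoa (-0.59). Gys2, Ugp2, Khk, Tkfc and Gckr differed by at most 0.15 on the log2 scale between the CD libraries. The Txnip call on CD was lost with nuclei thinned to 1000 UMIs (-0.14) and under 5 other settings, and that of Mpc2 when thinned (0.41) or with equal weight per nucleus (0.55). On LPD, the call of Tkfc was lost when thinned (-0.52) and with equal weight (-0.55), and that of Aldoa with equal weight (-0.46), without the deepest nuclei (-0.54) and with a pseudocount of 5 CPM (-0.50).

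In the library labelled CD control, 86 hepatocyte-like nuclei held a transgene UMI. Pck1 was at 9.85 CPM in these nuclei, on 8 UMIs, and 75.1 CPM in the other 7890 (log2 ratio -2.93 [-4.14 to -1.95]). Fbp1 was at 153 and 270.2 CPM (-0.82 [-1.09 to -0.57]). G6pc was nearer, at 162 and 201 CPM (-0.31 [-0.57 to -0.06]). Pklr was at 91.1 and 85.3 CPM, with an interval that spans 0 (0.09 [-0.26 to 0.43]). Gbe1 was at 1180 CPM against 892 CPM (0.40 [0.31 to 0.50]). Of the 86 nuclei, 82 lay in the pericentral zone defined in the next paragraph, where Pck1 was at 14.0 CPM and Fbp1 at 148 CPM, so position and transgene cannot be told apart here. The markers of that zone include Glul and Axin2, which the study names as β-catenin targets. The zone of these nuclei is therefore not independent of the transgene. The study places the oncogene-expressing hepatocytes mostly in the periportal and midzonal areas, with expression like that of pericentral cells.

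To place the genes along the lobule, hepatocyte-like nuclei of each library were ranked by 13 pericentral against 13 periportal marker genes, none of them a member, and cut into 3 zones of equal size. The cuts are relative to each library, and 6.98% to 13.5% of nuclei lay within 0.25 of a cut on the log2 scale. They lay at -1.95 and 2.24 in the library labelled CD control and at -3.31 and -0.93 in CD oncogene. In LPD control they lay at -4.16 and -0.96, and in LPD oncogene at -3.16 and 0. A zone thus spans different marker scores in each library. Nuclei held a median of 22 marker UMIs in each CD library, 12 in LPD control and 9 in LPD oncogene. With 1.5-fold in all 4 libraries required, 0 of 29 members were called higher in the periportal zone and 1 in the pericentral zone, where 2.25% and 2.87% of 7569 genes were. At any size, 14 of the 29 were higher in the periportal zone in all 4 libraries (15.2% of all genes) and 8 in the pericentral zone (24.5%). The 14 included 4 of the 5 production genes (Pck1, G6pc, Fbp1 and Slc37a4), and the 8 included 0 of them.

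Pck1 had the widest range of zonation. In the library labelled CD control it was at 150.1 CPM [144 to 156] in the periportal zone, 51.4 in the middle and 14.0 [12.2 to 16.0] in the pericentral zone, a log2 ratio of 3.42 [3.22 to 3.63]. In CD oncogene it was at 1521, 1416 and 959 CPM (0.67), in LPD control at 2726, 2604 and 1905 CPM (0.52), and in LPD oncogene at 1389, 1232 and 967 CPM (0.52). The gradient was thus steep where the level was low and shallow in the other 3 libraries. The zones span different marker scores in each library, and the part of this in the gradients was not tested.

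Fbp1 was at 388, 260 and 148 CPM from periportal to pericentral in the library labelled CD control (1.39 [1.33 to 1.46]), and its log2 ratio was 0.63, 0.66 and 0.45 in the others. G6pc had ratios of 0.66, 0.56, 0.62 and 0.11 in the usual order of libraries. In the last library it was flat, at 258 CPM, 260.3 CPM and 240 CPM. Pcx was even along the axis, with ratios no further from 0 than 0.16.

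Among genes of glucose use, Pfkfb1 was the member called pericentral, with ratios of -1.25, -1.40, -0.74 and -0.71. It was at 39.97 CPM periportal and 94.98 pericentral in the library labelled CD control, 43.5 and 115 in CD oncogene, 57.2 and 95.4 in LPD control, and 94.6 and 155 in LPD oncogene. With nuclei thinned to 1000 UMIs the call was lost (-0.42 in the library nearest to 0). Pklr was higher in the periportal zone in all 4 libraries (0.37, 0.92, 0.70 and 0.65), as was Khk (0.29, 0.55, 0.32 and 0.60). Mlxipl leaned to the pericentral zone (-0.30, -0.36, -0.28 and -0.05), on the opposite side from Pklr and Txnip.

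Gys2 had periportal over pericentral ratios of 0.42 and 0.17 on CD and steeper ones of 0.75 and 1.01 on LPD. Ugp2 had ratios of 0.10, -0.03, 0.22 and 0.97, steepest in LPD oncogene. Pygl was mildly periportal in every library (0.25 to 0.50). Gbe1 had a pericentral lean in 3 libraries (-0.44, -0.17 and -0.13) and a periportal one in LPD oncogene (0.25).

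**Figure D4:**
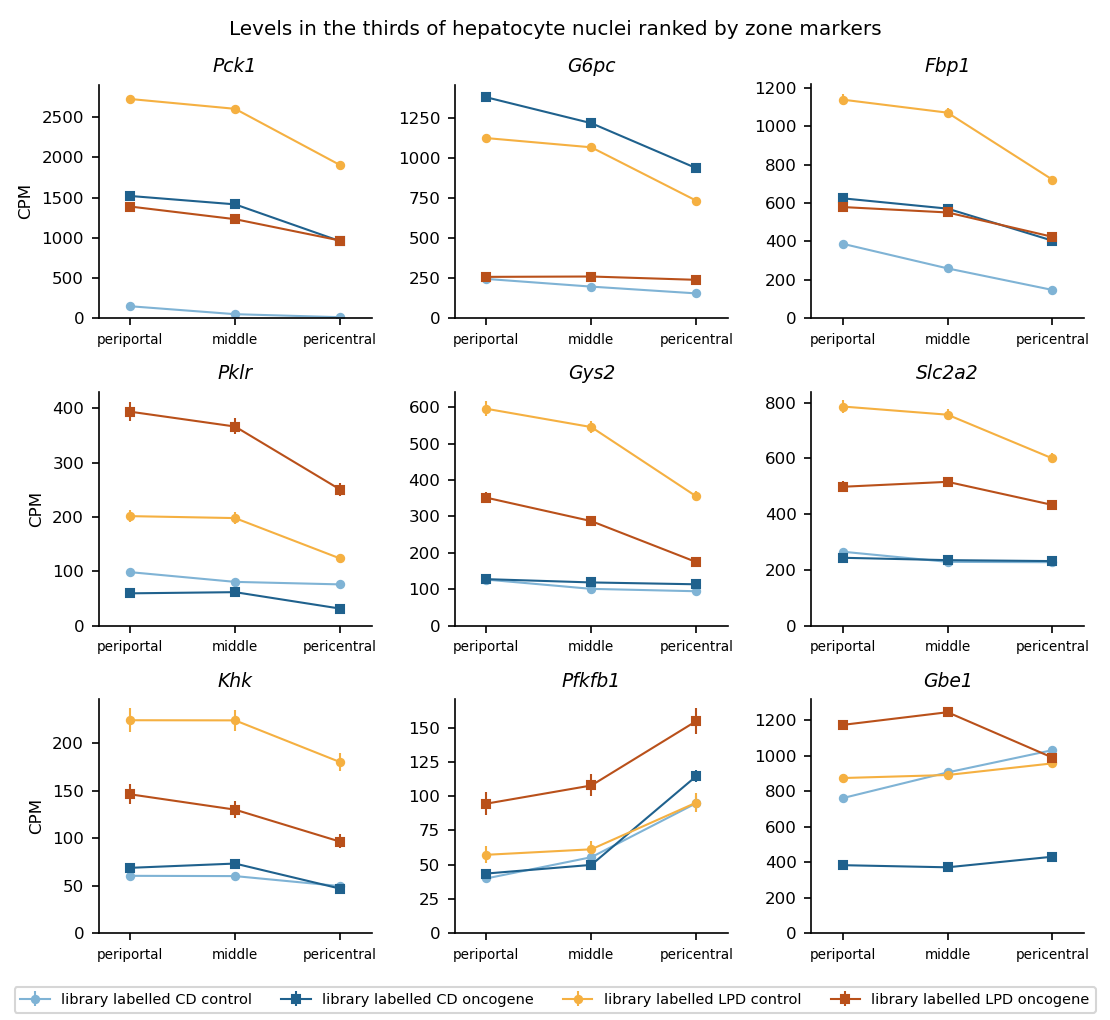
Level (CPM, linear axes from 0) of 9 genes in the periportal, middle and pericentral zones of hepatocyte-like nuclei, 1 line per library, with 95% counting intervals. Pck1 and Fbp1 decline towards the pericentral zone in every library and Pfkfb1 climbs towards it.

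The diet difference was present in each zone, where a zone covers different marker scores in each library. Of the 28 members, 13 were called higher on LPD in the periportal zone, 11 in the middle and 13 in the pericentral zone, where 13.7%, 11.9% and 10.8% of all genes were. Of the 12 genes called over all nuclei, 11 were called in the periportal zone (not Gapdh), 9 in the middle (not Txnip, Gapdh or Ldha) and 12 in the pericentral zone. The lowest of the 4 ratios for Pfkfb3 was 3.10 in the periportal and 1.70 in the pericentral zone, and for Gys2 1.46 and 0.62. Gapdh ran the other way, at 0.13 and 1.35. Ugp2 passed the fold in the periportal (0.82) and middle (0.59) zones and had a lowest ratio of -0.13 in the pericentral zone. Within zones, Pck1, G6pc and Fbp1 kept the signs of their injection ratios on either diet: Pck1 was at 3.34, 4.79 and 6.10 on CD from periportal to pericentral, and at -0.97, -1.08 and -0.98 on LPD.

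Outside hepatocytes, hepatocyte transcripts set a background, and free RNA and doublets were not told apart as its source. Nuclei of 11 further classes were rebuilt from marker genes, since no annotation was used. Hepatocyte markers (Alb, Apob, Cps1, Ttr, Fgb and Hnf4a) reached 0.207 to 0.940 times their hepatocyte level in sinusoidal endothelial-like nuclei (median 897 UMIs per nucleus, against 3086 in hepatocyte-like nuclei) and 0.185 to 0.795 times in Kupffer-like nuclei, a level that these classes hold as background. Pck1 was at 0.194 and 0.204 times its hepatocyte level in these classes, G6pc at 0.267 and 0.234, and Pklr at 0.148 and 0.114, all within or below that range, and are read as background there. In sinusoidal endothelial-like nuclei Pck1 was at 15.5, 334, 413 and 191 CPM, the same order of libraries as in hepatocytes.

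Members with at least 20 UMIs in a class were called there when they were higher than in hepatocytes by 1.5-fold in all 4 libraries. In sinusoidal endothelial-like nuclei 4 of 33 were called (Pfkfb3, Gyg, Txnip and Pck2), where 19.3% of all features with as many UMIs were. In Kupffer-like nuclei 3 of 28 were called (Pfkfb3, Txnip and G6pdx, 23.4% of all features). Calls numbered 2 of 20 in vascular endothelial-like (17%), 2 of 22 in monocyte or conventional dendritic-like (24%), 2 of 31 in stellate-like (17.1%), 2 of 30 in T or NK-like (16.2%) and 1 of 23 in B-like nuclei (20.6%). They were 0 of 13 in plasmacytoid dendritic-like (22.8%), 0 of 26 in cholangiocyte-like (9.59%), 0 of 19 in mesothelial-like (16.9%) and 0 of 27 in proliferating nuclei (8.73%). All features include the marker genes of each class. Pfkfb3 was in each of the 7 lists that held any. It was at 118, 68.9, 166 and 107 CPM in sinusoidal endothelial-like nuclei, where the diets overlap. It was at 73.8, 58.2, 130.0 and 122 CPM in Kupffer-like nuclei and at 65.7, 61.4, 141 and 128 CPM in T or NK-like nuclei, where both LPD libraries were above both CD libraries as in hepatocytes. The 8 sinusoidal endothelial markers summed to 36.1 to 51.5 CPM in hepatocyte-like nuclei, with no order by diet, against 5834 to 16120 CPM in their own class. The 7 Kupffer markers summed to 7.31, 9.84, 14.9 and 31.5 CPM in hepatocyte-like nuclei, higher on LPD, against 3516 to 6244 CPM in Kupffer-like nuclei, with 0 of the 15 markers of both lists at 0 in any library. Their part in the Pfkfb3 and Txnip differences was not tested.

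Txnip was at 114, 51.6, 168 and 120 CPM in sinusoidal endothelial-like nuclei and at 54.4, 47.6, 109 and 77.7 CPM in Kupffer-like nuclei. G6pdx, the entry enzyme of the pentose phosphate path, was the member most tilted to myeloid nuclei. It was at 28.6, 28.8, 36.0 and 80.7 CPM in monocyte or conventional dendritic-like nuclei (25 UMIs) and at 15.5, 7.93, 35.1 and 36.4 CPM in Kupffer-like nuclei (46 UMIs), and at or under 1.44 CPM in hepatocyte-like nuclei. Pck2 was at 14.1, 6.89, 16.8 and 17.9 CPM in sinusoidal endothelial-like nuclei, on 35 UMIs. The core enzymes Gapdh, Ldha, Pgk1 and Tpi1 lay between 0.429 and 1.82 times their hepatocyte level in the 11 classes.

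**Figure D5:**
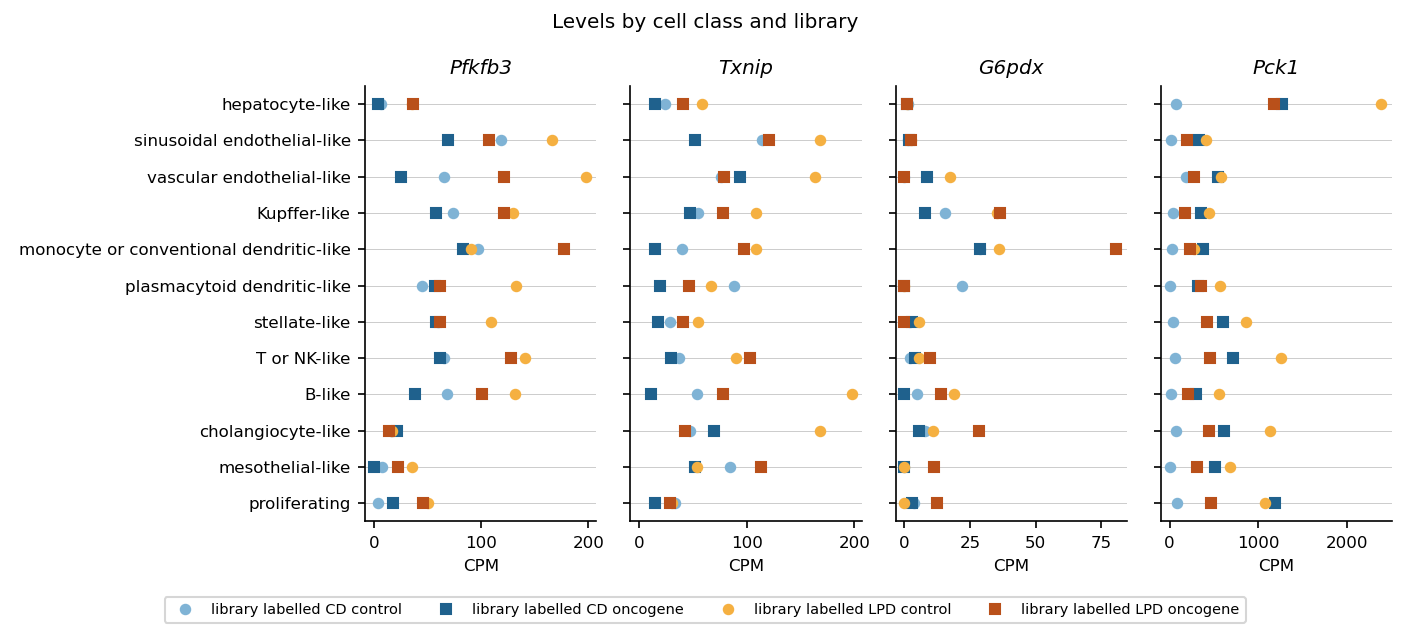
Level (CPM, linear axes) of Pfkfb3, Txnip, G6pdx and Pck1 in each cell class, 1 marker per library. Pfkfb3 is highest in endothelial-like nuclei in the libraries labelled control (up to 198 CPM). In those labelled oncogene it is highest in monocyte or conventional dendritic-like nuclei (82.9 and 178 CPM). G6pdx is highest in monocyte or conventional dendritic-like nuclei (up to 80.7 CPM), and Pck1 keeps the same order of libraries in hepatocyte-like and sinusoidal endothelial-like nuclei.

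A wider list of 58 other genes of these paths was counted beside the members. In hepatocyte-like nuclei 34 passed the filter, and 7 of them were called higher on LPD and 0 lower, where 11.8% and 3.88% of all genes were. Among the 7 were Pdk1, Foxo1, Stbd1, Mdh2, Rpia and Pdhb. Of these, Stbd1 (11.4 and 8.23 CPM on CD) and Rpia (9.28 and 7.45 CPM) passed the filter only through the library labelled LPD control. Stbd1 and Rpia thus had to be higher in that library than on CD to be tested. The median log2 ratio of the 34 genes was 0.43. Foxo1, the insulin-restrained activator of gluconeogenic genes, was at 188, 279, 437 and 578 CPM. Pdhb, a subunit of pyruvate dehydrogenase, was at 46.1, 42.7, 114 and 92.96 CPM. In the library labelled oncogene, 4 of the 34 were higher and 10 lower on CD (7.39% and 10.7% of all genes), and 3 were higher and 5 lower on LPD (5.24% and 5.06%).

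Got1, the cytosolic aspartate aminotransferase, was at 72.8, 426, 81.8 and 80.1 CPM, high in the library labelled CD oncogene alone. By zone, Ppargc1a, a coactivator of gluconeogenesis, was called periportal (0.66 to 1.21) and Pdk4, a kinase that shuts pyruvate dehydrogenase, pericentral (-4.87 to -0.81).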

How the data were processed

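Nuclei from frozen liver were profiled in droplets in 4 libraries, grouped by their sample titles. The deposited values are UMI counts per gene and nucleus, which the authors made with Cell Ranger against mm10 with human c-MET and β-catenin sequences added, and analysed with Seurat 5. No value was normalized before deposit. Nuclei with 200 to 7000 detected genes and at most 21% mitochondrial UMIs were kept (42877 of 44010). They were clustered without the members, the other pathway genes, mitochondrial genes and transgenes (5000 variable genes, 23 components, a Harmony correction written in numpy, 20 neighbours, Louvain resolution 0.4). A cluster was named for a non-hepatocyte class when at least 3 of its markers, and at least 50% of the list, were raised 3-fold over all other nuclei, and proliferating when all 8 of that list were. Since hepatocytes are most of the nuclei, a cluster of no other class was named hepatocyte when its mean level of Apob and Hnf4a was at least 75% of that over all such clusters. No doublet caller was run, and 3 clusters (1158 nuclei) at that hepatocyte level with markers of another class were left out as doublets, leaving 41719 nuclei.

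Counts were summed per library and class. A gene with at least 20 CPM in 1 library and 50 UMIs in all was compared, and a count of 0 was set to a floor of 3. Ratios were called at 1.5-fold, without a test. The statistics were tested on simulated Poisson counts, which hold counting error only and no differences between mice or libraries. All 34 members are named. Values in each library are given for those past the fold in all diet pairs, in both injection contrasts or in all libraries by zone, and for textbook control points, with examples of other pathway genes. Some of the other pathway genes are counted but not reported here by name. The members and lists were chosen with earlier results of these data known. Alternatives covered scaling (TMM, edgeR 4.0.16), the total, weights, filters, depth, clustering, a pseudocount of 5 CPM and the fold. Python 3.11.15, numpy 2.4.6, scipy 1.17.1, igraph 0.11.9 and R 4.3.3 were used. Promoters came from RefSeq (GRCm38.p6).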

Additional observations from a re-analysis of the deposited data

Results flagged for a closer look

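For 4 members the library labelled oncogene lay on opposite sides of the library labelled control on the 2 diets, each with 1 library per group, and the difference between the diets was not tested. The log2 ratio of Pck1 was 4.10 on CD and -1.02 on LPD. That of G6pc was 2.52 on CD and -1.93 on LPD, and that of Fbp1 was 0.96 on CD and -0.91 on LPD. Pklr had the reverse order, at -0.81 on CD and 0.94 on LPD. The transgene UMIs go against the CD labels (100 in the library labelled control and 0 in oncogene), and with exchanged labels the signs would be alike on both diets.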

How the results depend on the processing

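Each group of diet and injection is 1 library, and neither a paired analysis nor any other test was run. Counting error is small here, differences between mice cannot be seen, and depth and mitochondrial share cannot be told apart from diet. At 2-fold, 7 members were higher on LPD (4.01% of all genes), 2 higher and 2 lower in the library labelled oncogene on CD, 0 higher and 2 lower on LPD (Pck1 and G6pc), and 0 pericentral. With a pseudocount of 5 CPM, 2 members were lower on CD, and with nuclei thinned to 1000 UMIs 0 were pericentral. For the injection and zone counts under these and the following settings, the share of all genes is not given here. Those counts are therefore not set against a background. No member was lower on LPD under any alternative run, and the count higher on LPD was 10 to 13 under the other settings (8.53% to 12.7% of all genes) and 15 without the filter on low counts (22.1%). Leaving out each library in turn, which was chosen after seeing the data, gave 14 to 17 members higher on LPD (16.3% to 22.3% of all genes), 0 to 1 periportal (Pklr without CD control, Fbp1 without LPD oncogene) and 1 to 2 pericentral (Pfkfb3 added without LPD oncogene). With a library left out, fewer pairs or libraries have to pass the fold, so these counts could only stay or rise. They are no check on the calls. Of the single-gene values, 228 moved little, 82 moved and 0 reversed. The cause of these changes was not tested, other than the fold itself.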
